A study of Homo sapiens with 18 samples.

Results

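The complement components and regulators described here were 9 genes, C1R, C1S, C3, CFB, CFI, CD46, CD55, CD59 and SERPING1, chosen by name from the 58288 gene entries of the count data. All 9 passed the filter on low counts and were among the 22023 genes tested. RNA was sequenced from 3 established high-grade serous ovarian cancer (HGSOC) cell lines, Kuramochi, OVCAR4 and OVCAR8, each carrying green fluorescent protein (GFP). The tested cells had spent 48 h on a 3D organotypic culture of the omentum, the abdominal fat tissue to which this cancer often spreads, and were then recovered by sorting for GFP. The control cells of each line came from plastic dishes and were passed through the sorter in the same way. The 6 groups were therefore Kuramochi 3D, Kuramochi plastic, OVCAR4 3D, OVCAR4 plastic, OVCAR8 3D and OVCAR8 plastic, with 3 libraries each. The 3D culture was built from collagen I, primary human omental fibroblasts and a layer of primary human mesothelial cells, so the sorted 3D libraries came from dishes that held other human cells, and the plastic dishes did not.

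Complement is a cascade of blood proteins that marks and attacks microbes and damaged cells. In the classical pathway C1q carries the paired serine proteases C1r and C1s, and C1s cleaves C4 and C2 to build an enzyme that cleaves C3. In the alternative pathway factor B joins cleaved C3 and forms a further C3-cleaving enzyme, which amplifies the reaction. Inhibitors act at each step. The C1 inhibitor encoded by SERPING1 blocks C1r and C1s, factor I degrades cleaved C3 and C4, CD46 serves factor I as a membrane cofactor, CD55 speeds the decay of the C3-cleaving enzymes, and CD59 blocks the pore that ends the cascade. The liver makes most circulating complement proteins, but fibroblasts, mesothelial cells and many epithelial tumors make some of them too.

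Promoter sequences are shown for a component gene (CFB), a protease gene (C1R) and an inhibitor gene (CFI). These 3 members differ in the short motifs they hold. By the test described below, CFB and C1R were higher on 3D in all 3 lines, and CFI in Kuramochi and OVCAR8 only. The windows are the 250 bases before a transcription start in RefSeq (GRCh38.p14), printed 5′ to 3′ on the strand of the gene, and 6 of the 9 members matched that table, C1S, C3 and SERPING1 being the exceptions. Capitals mark matches on either strand to GAS (TTCNNNGAA, the interferon-gamma activated site), to ISRE (GAAA and again GAAA 2 bases further on, the interferon-stimulated response element) or to the NF-kB consensus.
CFB promoter, chr6:31945845-31946094, plus strand: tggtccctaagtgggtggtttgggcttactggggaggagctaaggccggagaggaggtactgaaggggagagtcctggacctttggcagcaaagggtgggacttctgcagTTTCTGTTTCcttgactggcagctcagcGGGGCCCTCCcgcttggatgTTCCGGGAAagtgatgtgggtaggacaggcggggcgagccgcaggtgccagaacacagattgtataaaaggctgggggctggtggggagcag
C1R promoter, chr12:7091894-7092143, minus strand: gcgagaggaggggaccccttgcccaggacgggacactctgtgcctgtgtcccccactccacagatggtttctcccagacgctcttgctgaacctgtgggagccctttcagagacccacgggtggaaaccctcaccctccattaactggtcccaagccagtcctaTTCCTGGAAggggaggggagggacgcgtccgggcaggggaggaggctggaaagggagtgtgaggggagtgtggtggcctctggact
CFI promoter, chr4:109802000-109802249, minus strand: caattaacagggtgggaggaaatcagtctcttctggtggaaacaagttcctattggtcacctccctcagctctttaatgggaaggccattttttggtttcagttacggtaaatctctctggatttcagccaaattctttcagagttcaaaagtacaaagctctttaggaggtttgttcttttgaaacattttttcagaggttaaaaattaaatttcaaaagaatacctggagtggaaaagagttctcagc
The CFB window held an ISRE match 140 to 131 bases upstream, an NF-kB match 112 to 103 bases upstream and a GAS match 92 to 84 bases upstream, with no overlap among them. The C1R window held a GAS match 86 to 78 bases upstream, and the window of its other listed start held none. The windows of CFI, CD46 and CD55 held no match to these 3 motifs, and CD59 held a GAS match before 2 of its listed starts. By the main test CFI, CD46 and CD55 were higher on 3D in Kuramochi, and CD59 was not called in any line. Among all 35116 promoter windows of this length, 6.567% held a GAS match, 3.021% an ISRE match and 9.961% an NF-kB match. Counted per gene over all its listed starts, the shares were 8.086%, 3.714% and 11.8%. A match describes letters in a window and was not tested for binding or against the changes on 3D.

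The libraries held between 28415048 and 43142540 counted reads (median 33980300). Levels below are counts scaled to library size (CPM) on library sizes scaled by the trimmed mean of M-values (TMM). Changes are log2 fold changes of 3D minus plastic with their standard errors (SE), from 1 quasi-likelihood model over all 18 libraries. A gene was called at a Benjamini-Hochberg adjusted p under 0.05 over all genes tested. Nothing in the labels ties a library to a culture dish, and the study describes 3 independent experiments per line. The pairs OVCAR4 3D 4 and 6, OVCAR8 3D 61 and 62, and OVCAR8 plastic 4 and 62 differed far less than other replicate pairs, with chi-square values per degree of freedom of 1.89, 2.60 and 2.93, against 8.64 to 102 in the rest. Where averaging these pairs ended a call, this is given with the result.

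Of the 9 members, 8 were higher on 3D in Kuramochi, 6 in OVCAR4 and 6 in OVCAR8. The background share of all tested genes called higher was 14.4% in Kuramochi, 15.2% in OVCAR4 and 7.51% in OVCAR8. C1R, C1S, C3, CFB and SERPING1 were higher in all 3 lines, 5 of 9 members, against 1.28% of all genes tested. The members were chosen with earlier results of these data known, so such shares describe them and do not test them. The median member change was 2.04 in Kuramochi, 1.39 in OVCAR4 and 2.72 in OVCAR8 on the log2 scale, beside 0.02, 0.04 and 0.02 over all genes tested. With a minimum of 2-fold as well, 6, 5 and 6 members were higher, beside 5.52%, 6.28% and 5.13% of all genes. No member was called lower in any line, beside 12.8%, 11.9% and 3.32% of all genes. The number lower at an unadjusted p under 0.05 was 0 in each line. With DESeq2 the number lower at an adjusted p under 0.05 was 0 in each line as well. Every 3D library lay above every plastic library for 7 members in Kuramochi, 8 in OVCAR4 and 7 in OVCAR8, beside 17.2%, 25.5% and 21.6% of all genes. The secreted components and the C1 inhibitor accounted for the large changes, and the 3 membrane regulators changed by less than 2-fold, CD55 in Kuramochi excepted.

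**Figure D1:**
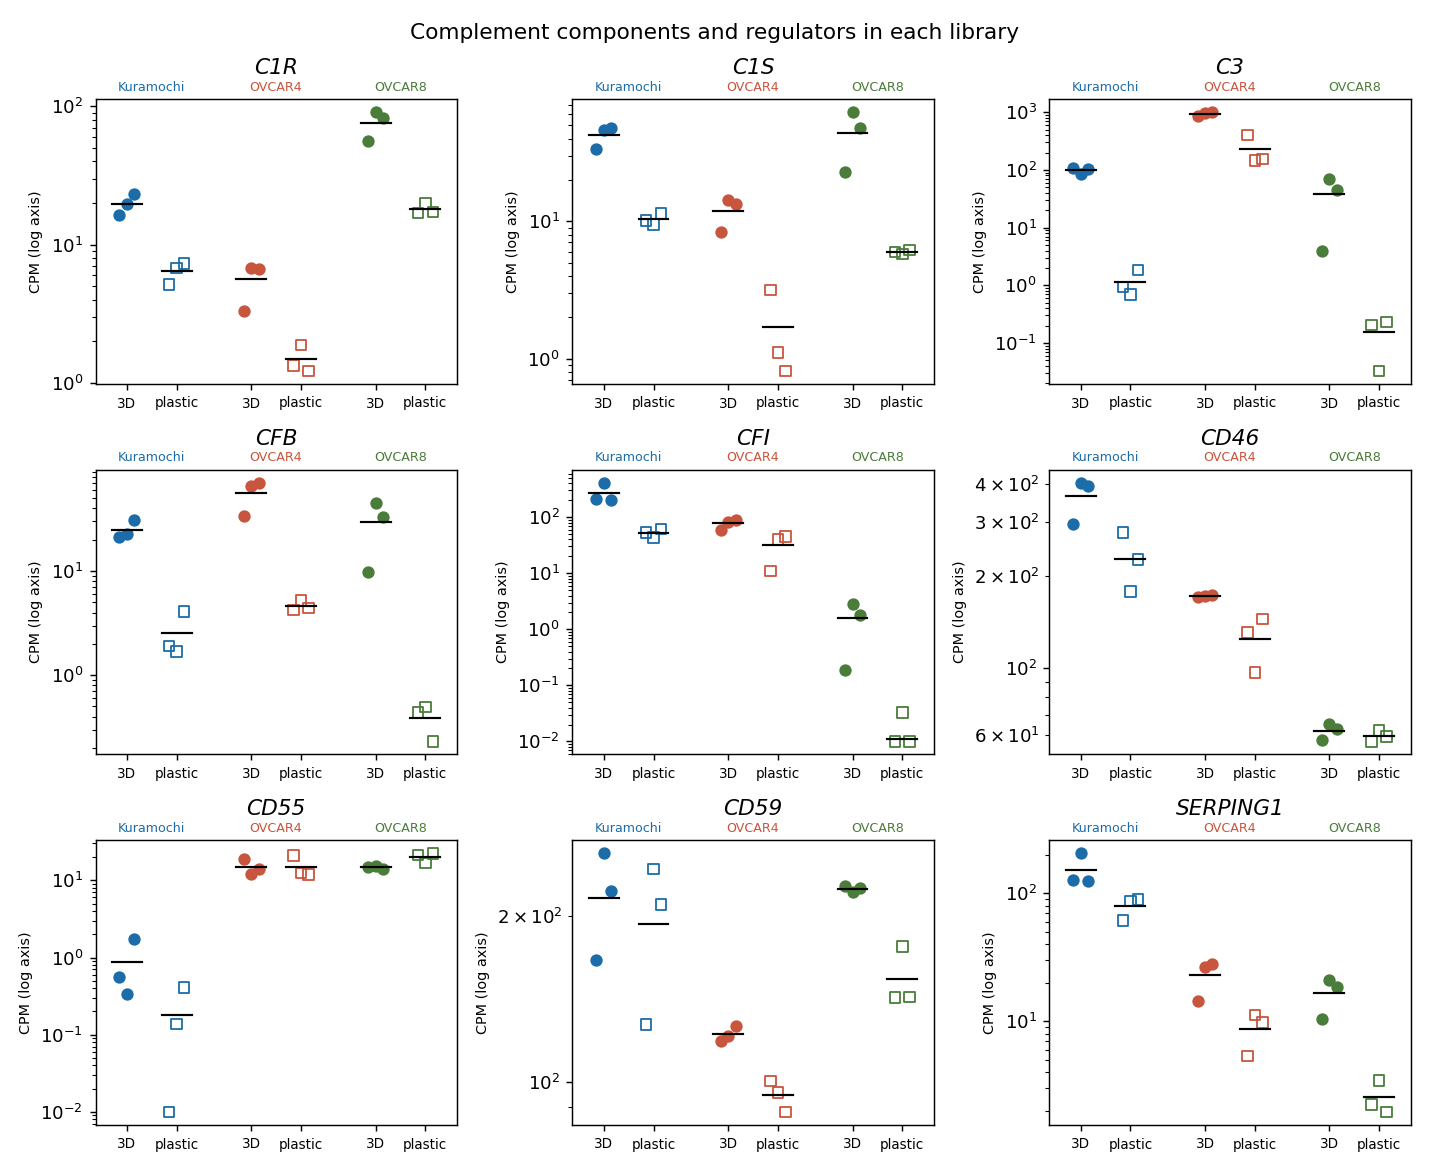
CPM of the 9 members in each library, on a log axis for each gene, with 3D as filled circles and plastic as open squares and a bar at the mean of 3 libraries. Libraries with 0 counts are drawn at 0.01 CPM. C1R, C1S, C3, CFB, CFI and SERPING1 show every 3D library above every plastic library in each line, and CD55 does not in any line.

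C1R, the protease that activates C1s, was higher on 3D by 3.08-fold in Kuramochi, 3.78-fold in OVCAR4 and 4.23-fold in OVCAR8. In Kuramochi it stood at 16.3, 19.6 and 23.2 CPM on 3D (libraries 2, 4 and 8), against 5.13, 6.75 and 7.31 CPM on plastic. In OVCAR4 it stood at 3.32, 6.82 and 6.71 CPM on 3D (libraries 42, 4 and 6), against 1.33, 1.88 and 1.22 CPM on plastic. In OVCAR8 it stood at 55.7, 90.5 and 81.8 CPM on 3D (libraries 4, 61 and 62), against 16.9, 19.9 and 17.2 CPM on plastic. The groups did not overlap in any line. The log2 changes were 1.62 (SE 0.246, adjusted p = 0.000314) in Kuramochi, 1.92 (SE 0.276, adjusted p = 0.000302) in OVCAR4 and 2.08 (SE 0.241, adjusted p = 1.96e-05) in OVCAR8. They were close to each other, and the test for a difference among the lines gave an adjusted p of 0.642. The library order above holds for all members.

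C1S, the protease that cleaves C4 and C2, followed C1R with larger folds of 4.11, 7.09 and 7.39 in Kuramochi, OVCAR4 and OVCAR8. Kuramochi had 33.5, 46.2 and 47.6 CPM on 3D, against 10.1, 9.50 and 11.3 CPM on plastic. OVCAR4 had 8.39, 14.2 and 13.3 CPM on 3D, against 3.14, 1.10 and 0.812 CPM on plastic. OVCAR8 had 22.8, 62.1 and 47.4 CPM on 3D, against 5.97, 5.75 and 6.17 CPM on plastic. Again no 3D library fell within the plastic range, although OVCAR8 3D library 4 was well below its 2 companions. The log2 changes were 2.04 (SE 0.366, adjusted p = 0.0012), 2.83 (SE 0.408, adjusted p = 0.00039) and 2.89 (SE 0.380, adjusted p = 0.000112). Without OVCAR4 plastic library 42 the OVCAR4 change was 3.63 (adjusted p = 5.42e-05). The test for a difference among lines missed the threshold (adjusted p = 0.459). Per kilobase of exon, the ratio of C1S to C1R counts was 1.44 to 1.65 in Kuramochi 3D libraries, against 0.985 to 1.38 on plastic. It was 0.286 to 0.480 in OVCAR8 3D libraries, against 0.202 to 0.252 on plastic, so C1R exceeded C1S in every OVCAR8 library. Both genes lie on chromosome 12 (GRCh38), C1R at 7080214 to 7092540 on the minus strand and C1S at 6988259 to 7071032 on the plus strand. In current gene models C1R overlaps C1RL and C1S overlaps LPCAT3 on the other strand, and how the counting treated such reads was not given in the sources used here.

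SERPING1, which encodes the inhibitor of both proteases, was higher with them, by 1.92-fold in Kuramochi, 2.62-fold in OVCAR4 and 6.60-fold in OVCAR8. Kuramochi had 127, 206 and 125 CPM on 3D, against 61.7, 87.1 and 89.7 CPM on plastic. OVCAR4 had 14.6, 26.4 and 28.3 CPM on 3D, against 5.37, 11.2 and 9.81 CPM on plastic. OVCAR8 had 10.4, 21.2 and 18.7 CPM on 3D, against 2.24, 3.45 and 1.96 CPM on plastic. All 3D libraries were above all plastic libraries of their line, and OVCAR4 3D library 42 and OVCAR8 3D library 4 were the low ones of their groups. The log2 changes were 0.94 (SE 0.313, adjusted p = 0.0346), 1.39 (SE 0.328, adjusted p = 0.00639) and 2.72 (SE 0.359, adjusted p = 0.000114). The Kuramochi call was lost without Kuramochi 3D library 4 or without any of the plastic libraries 2, 4 and 8 (adjusted p 0.0696 to 0.160), and with close libraries averaged the adjusted p was 0.0563 in Kuramochi and 0.0521 in OVCAR4. The OVCAR8 change exceeded the Kuramochi change by 1.78 (SE 0.469, adjusted p = 0.0341), which 5.71% of all genes also passed in either direction. That difference was lost on leaving out any of 8 libraries, namely Kuramochi 3D 2 and 8, Kuramochi plastic 4 and 8, OVCAR8 3D 61 and 62, and OVCAR8 plastic 4 and 62 (adjusted p 0.0561 to 0.112), and with close libraries averaged (adjusted p = 0.259). SERPING1 lies on chromosome 11 at 57597387 to 57619171.

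C3, the protein on which all complement pathways converge, differed widely between lines and cultures. It was 87.6-fold higher on 3D in Kuramochi, 4.00-fold in OVCAR4 and 237-fold in OVCAR8. Kuramochi had 107, 83.7 and 106 CPM on 3D, against 0.937, 0.688 and 1.85 CPM on plastic. OVCAR4 had 855, 959 and 995 CPM on 3D, against 406, 144 and 154 CPM on plastic. OVCAR8 had 3.93, 68.4 and 44.3 CPM on 3D, against 0.204, 0.0329 and 0.231 CPM on plastic, where the 3 libraries held 16 counts in all. OVCAR4 thus carried C3 on plastic at a higher level than the other lines reached on 3D. OVCAR8 3D library 4 was far below the other OVCAR8 3D libraries and was still above the plastic range. The log2 changes were 6.45 (SE 0.850, adjusted p = 0.000227), 2.00 (SE 0.647, adjusted p = 0.0337) and 7.89 (SE 1.04, adjusted p = 0.000212). Without OVCAR4 plastic library 42 the OVCAR4 change was 2.65 (adjusted p = 0.0231), and without OVCAR8 3D library 61 the OVCAR8 change was 7.21 (adjusted p = 0.000627).

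The C3 change differed among lines (adjusted p = 0.0119), as did that of CFB (adjusted p = 0.0430), so 2 of the 9 members passed this test, beside 6.17% of all genes. For C3 the OVCAR8 change exceeded the OVCAR4 change by 5.89 on the log2 scale (SE 1.25, adjusted p = 0.0171, beside 4.04% of all genes), and the Kuramochi and OVCAR8 changes were not separated (adjusted p = 0.606). With the replicate number as a block 5 members passed the test among lines, and with close libraries averaged none did, the adjusted p for C3 being 0.125. The OVCAR4 call for C3 was lost without any of OVCAR4 3D 42, 4 and 6 or plastic 4 and 6 (adjusted p 0.0539 to 0.159) and with close libraries averaged (adjusted p = 0.105). The difference between OVCAR8 and OVCAR4 was lost without OVCAR4 3D 4 or any of the OVCAR8 plastic libraries 4, 61 and 62 (adjusted p 0.0506 to 0.0603), and with close libraries averaged (adjusted p = 0.197). C3 lies on chromosome 19 at 6677704 to 6730562 on the minus strand.

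CFB, the factor of the alternative pathway that binds cleaved C3, was 9.87-fold higher on 3D in Kuramochi, 12.2-fold in OVCAR4 and 76.1-fold in OVCAR8. Kuramochi had 21.1, 22.7 and 31.0 CPM on 3D, against 1.90, 1.68 and 4.10 CPM on plastic. OVCAR4 had 33.6, 66.4 and 70.6 CPM on 3D, against 4.22, 5.25 and 4.44 CPM on plastic. OVCAR8 had 9.85, 45.5 and 32.9 CPM on 3D, against 0.437, 0.493 and 0.231 CPM on plastic. No 3D library overlapped the plastic libraries of its line, and OVCAR4 3D library 42 and OVCAR8 3D library 4 were the low ones of their groups. The log2 changes were 3.30 (SE 0.476, adjusted p = 0.000301), 3.61 (SE 0.466, adjusted p = 0.000225) and 6.25 (SE 0.589, adjusted p = 3.9e-06). The OVCAR8 change exceeded the Kuramochi change by 2.95 (SE 0.745, adjusted p = 0.0292). This difference was lost without any of Kuramochi 3D 4, Kuramochi plastic 8, OVCAR8 3D 61 and 62, and OVCAR8 plastic 4 and 62 (adjusted p 0.0572 to 0.104), and with close libraries averaged (adjusted p = 0.200). The test among all lines was lost on leaving out any of 15 libraries (adjusted p 0.0519 to 0.159), that is, any but Kuramochi plastic 2, OVCAR4 3D 42 and OVCAR8 3D 4, and with close libraries averaged (adjusted p = 0.317). CFB lies on chromosome 6 at 31945650 to 31952086 and shares its exons with a read-through gene model of C2 and CFB, which held 11160 counts beside 12619 for CFB over all libraries. Summing both models left every CFB call in place.

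CFI, the protease that degrades cleaved C3 and C4, was 5.22-fold higher on 3D in Kuramochi and was near 0 in OVCAR8 on plastic. Kuramochi had 209, 410 and 202 CPM on 3D, against 53.2, 43.2 and 61.2 CPM on plastic, a log2 change of 2.38 (SE 0.530, adjusted p = 0.00485). OVCAR4 had 58.2, 83.4 and 90.0 CPM on 3D, against 11.1, 39.6 and 45.4 CPM on plastic. These groups did not overlap, but the log2 change of 1.27 (SE 0.515) missed the threshold at an adjusted p of 0.0790. OVCAR8 had 7, 108 and 88 counts on 3D, against 0, 1 and 0 counts on plastic. The ratio was 163, with a 95% exact interval of 28.9 to 6461 that covers counting error only, and the adjusted p was 0.0106. The single plastic count was in OVCAR8 plastic 61. The OVCAR8 call was lost without OVCAR8 plastic 4 (adjusted p = 0.0559) or 62 (adjusted p = 0.0567) and with close libraries averaged (adjusted p = 0.176). The OVCAR4 change passed the threshold without OVCAR8 3D library 4 (adjusted p = 0.0230). At 0.190 to 2.79 CPM, CFI in OVCAR8 3D libraries stayed below every plastic library of the other lines. CFI lies on chromosome 4 at 109731008 to 109802150 on the minus strand.

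**Figure D2:**
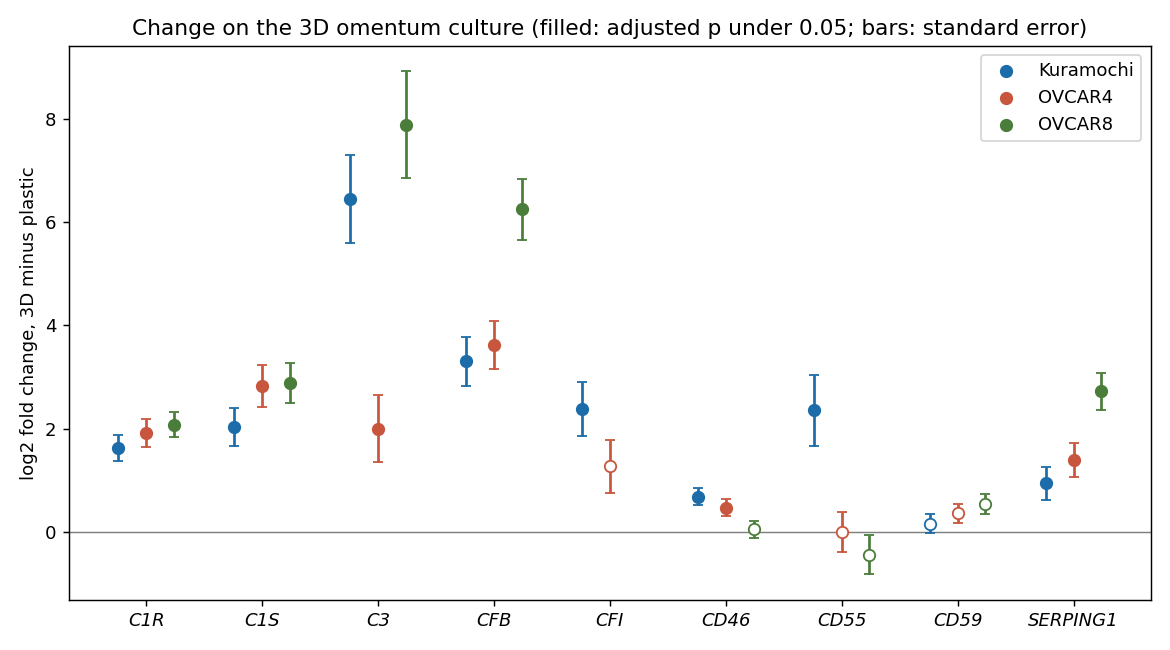
Log2 fold change of 3D minus plastic for each member in each line, with bars for the standard error and filled points for an adjusted p under 0.05. CFI in OVCAR8 is left out because plastic held 1 count. C1R changes lie between 1.62 and 2.08, and C3 and CFB changes spread most between lines.

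CD46, the membrane cofactor for factor I, was high in every line and changed little. Kuramochi had 294.7, 403 and 395 CPM on 3D, against 277, 178 and 226 CPM on plastic, a log2 change of 0.68 (SE 0.163, adjusted p = 0.00562). OVCAR4 had 169.8, 172 and 172 CPM on 3D, against 130.3, 96.4 and 144 CPM on plastic, a log2 change of 0.47 (SE 0.162, adjusted p = 0.0392). OVCAR8 had 57.9, 65.3 and 63.0 CPM on 3D, against 57.3, 62.3 and 59.5 CPM on plastic, a log2 change of 0.06 (SE 0.163, adjusted p = 0.870). The groups overlapped in OVCAR8 and did not in Kuramochi or OVCAR4. The Kuramochi call was lost when each line was fitted alone (adjusted p = 0.0628). The OVCAR4 call was lost on leaving out any of 10 libraries (adjusted p 0.0502 to 0.245), which were OVCAR4 3D 42, 4 and 6, OVCAR4 plastic 42 and 4, Kuramochi plastic 8, OVCAR8 3D 62 and all OVCAR8 plastic libraries. It was lost too with close libraries averaged (adjusted p = 0.145) and in the fit of OVCAR4 alone (adjusted p = 0.0533).

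CD55, the decay-accelerating factor, was at 12.2 to 18.8 CPM in OVCAR4 3D libraries, against 11.8 to 20.9 CPM on plastic. Its OVCAR4 change was 0.00 (SE 0.386, adjusted p = 1), with overlapping groups. In OVCAR8 it stood at 14.98, 15.4 and 14.2 CPM on 3D, against 21.2, 16.7 and 22.4 CPM on plastic. Every OVCAR8 3D library was below every plastic library, as for 19.8% of all genes, and the log2 change of -0.44 (SE 0.384) had an adjusted p of 0.496. Kuramochi held little CD55, with 16, 11 and 52 counts on 3D (0.553, 0.340 and 1.74 CPM), against 0, 5 and 11 counts on plastic (0, 0.138 and 0.406 CPM). The Kuramochi groups overlapped, and the log2 change was 2.36 (SE 0.688, adjusted p = 0.0179). That call was lost without Kuramochi 3D library 8 (log2 change 1.39, adjusted p = 0.161), without Kuramochi plastic 4 (adjusted p = 0.0888) and in the fit of Kuramochi alone (adjusted p = 0.114). The change was 1.75 without Kuramochi plastic 2 (adjusted p = 0.0492) and 3.52 without Kuramochi plastic 8 (adjusted p = 0.00987). The OVCAR8 change minus the Kuramochi change was -2.80 (SE 0.791, adjusted p = 0.0463). It was lost on leaving out any of 14 libraries (adjusted p 0.0503 to 0.193), that is, any but Kuramochi 3D 2 and 4, Kuramochi plastic 8 and OVCAR4 plastic 42, and with close libraries averaged (adjusted p = 0.240). CD46 and CD55 lie on chromosome 1, at 207752037 to 207795513 and at 207321519 to 207386804.

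CD59, which blocks the terminal pore, was abundant in every group and was not called in any line. Kuramochi had 166, 260.2 and 222 CPM on 3D, against 127, 244 and 210.2 CPM on plastic, a log2 change of 0.16 (SE 0.185, adjusted p = 0.561). OVCAR4 had 119, 121 and 126 CPM on 3D, against 100.3, 95.7 and 88.2 CPM on plastic, a log2 change of 0.37 (SE 0.186, adjusted p = 0.152). OVCAR8 had 227, 221 and 225 CPM on 3D, against 142, 176 and 143 CPM on plastic, a log2 change of 0.54 (SE 0.186, adjusted p = 0.0654). The groups overlapped only in Kuramochi. In OVCAR8 the change passed the threshold without Kuramochi 3D 2, Kuramochi plastic 2 or Kuramochi plastic 4 (adjusted p 0.0136 to 0.0471). It also passed with DESeq2, with no filter on low counts and in the fit of OVCAR8 alone (adjusted p = 0.00597 in that fit). In OVCAR4 it passed without Kuramochi plastic 2 (adjusted p = 0.0488) and in the fit of OVCAR4 alone (adjusted p = 0.0431). CD59 lies on chromosome 11 at 33703010 to 33736479 on the minus strand.

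On plastic the lines already differed in most members, and most genes did so as well. Kuramochi and OVCAR4 differed in 7 of 9 members (61.7% of all genes called), OVCAR8 and OVCAR4 in 8 (68.9%) and OVCAR8 and Kuramochi in 6 (67.7%). Kuramochi exceeded OVCAR4 in SERPING1 by 3.17 (SE 0.344, adjusted p = 4.66e-07) on the log2 scale. The difference of Kuramochi minus OVCAR4 was -7.70 (SE 0.885, adjusted p = 2.26e-06) in C3 and -6.46 (SE 0.587, adjusted p = 4.54e-08) in CD55. OVCAR8 exceeded OVCAR4 in C1R by 3.60 (SE 0.279, adjusted p = 1.96e-09). C1R stood at 17.99 CPM in OVCAR8, 6.39 CPM in Kuramochi and 1.48 CPM in OVCAR4 on plastic, and all 3 steps passed the test. CFI stood at 52.5 CPM in Kuramochi and 32.0 CPM in OVCAR4 on plastic, which did not differ beyond their spread (adjusted p = 0.242).

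Per kilobase of exon, the leading member was CFI in Kuramochi 3D (51.5 ± 22.1 CPM per kilobase, SD, n = 3), and CD59 in Kuramochi plastic (18.4 ± 5.68). It was C3 in both OVCAR4 groups, at 80.9 ± 6.28 CPM per kilobase on 3D, against 20.2 ± 12.8 on plastic. It was CD59 in both OVCAR8 groups, at 21.2 ± 0.264 on 3D, against 14.6 ± 1.86 on plastic. C1R ranked behind CD59 in OVCAR8 3D at 13.1 ± 3.12 CPM per kilobase and was last in OVCAR4 3D at 0.968 ± 0.343. CD55 was last in both Kuramochi groups. In Kuramochi 3D, CD46 (23.5 ± 3.89), SERPING1 (21.1 ± 6.37) and CD59 (20.5 ± 4.47) lay within 1 SD of each other. Pearson's r over the 6 group means of log2 levels, which share lines and culture, named 1 gene nearest to each member among 16456 genes. These were DGKD for C1R (0.9922), TMEM94 for C1S (0.9886), ENDOD1 for C3 (0.9902), the read-through model for CFB (0.9972), RBM43 for CFI (0.9967), IFNAR2 for CD46 (0.9981), SLC16A3 for CD55 (0.9977), ZC3HAV1 for CD59 (0.9967) and PTPRU for SERPING1 (0.9983).

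Most fibroblast markers were higher on 3D too. Their sum and the member sum are set side by side here with no test. Kuramochi 3D library 4 had the smallest fibroblast sum of its group and the largest member sum (1451 CPM, against 975 and 1153 CPM). CFI and CD46 were the largest parts of that member sum (410 and 403 CPM). C3 in this library was the lowest of its group (83.7 CPM, against 106 and 107 CPM). OVCAR4 3D library 42 and OVCAR8 3D library 4 had the smallest of both sums in their 3D groups. In OVCAR8 3D library 4 the fibroblast sum lay within its plastic range, while COL1A2 was at 8.33 CPM, against 0 on plastic. Members summed to 402 CPM there, against 247 to 285 on plastic. CD59, which was not called, held 227 CPM of that sum, against 142 to 176 CPM on plastic. C3 was at 3.93 CPM in this library, against 44.3 and 68.4 CPM in the other OVCAR8 3D libraries. Of 10 fibroblast marker genes, 8 were higher on 3D in Kuramochi, 10 in OVCAR4 and 7 in OVCAR8. Their summed level was 579 to 1359 CPM in Kuramochi 3D, against 347 to 444 CPM on plastic, 140.0 to 1189 CPM in OVCAR4 3D, against 21.2 to 21.6 CPM on plastic, and 690.2 to 2909 CPM in OVCAR8 3D, against 661 to 725 CPM on plastic. DCN and POSTN were at 0 in all plastic libraries of Kuramochi and OVCAR4, and COL1A2, DCN, LUM, POSTN and FAP were at 0 in all plastic libraries of OVCAR8. Of 8 mesothelial markers, 7 could be tested, and 3 were higher and 1 lower in Kuramochi, 4 were higher in OVCAR4 and 2 in OVCAR8. Their summed level was 189.7 to 224 CPM in Kuramochi 3D, against 219.7 to 354 CPM on plastic, 130.3 to 142 CPM in OVCAR4 3D, against 109.8 to 182 CPM on plastic, and 208 to 253 CPM in OVCAR8 3D, against 167 to 181 CPM on plastic. Of 8 leukocyte markers, 3 could be tested, and 2 were higher in Kuramochi, 2 in OVCAR4 and 3 in OVCAR8. Their sum was 4.36 to 7.61 CPM in Kuramochi 3D, against 1.99 to 3.21 CPM on plastic, 23.1 to 36.9 CPM in OVCAR4 3D, against 10.2 to 18.6 CPM on plastic, and 83.0 to 95.3 CPM in OVCAR8 3D, against 20.5 to 23.0 CPM on plastic. CD68, a lysosomal gene, stood at 81.7 to 94.4 CPM in OVCAR8 3D, against 19.96 to 22.6 CPM on plastic. MS4A1 was at 0 in all 18 libraries, CD3E was at 0 in all Kuramochi and OVCAR8 libraries, and PTPRC, which is shared by leukocytes, was at 0.185 CPM or less in every library. In such bulk RNA, fewer cells of a type and less RNA per cell cannot be told apart, and the part of fibroblast, mesothelial or leukocyte RNA in the complement changes was not tested.

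COL1A2, a collagen gene typical of fibroblasts, was low in 1 of the 3D libraries of each line, at 38.2 CPM in Kuramochi 3D library 4, 31.9 CPM in OVCAR4 3D library 42 and 8.33 CPM in OVCAR8 3D library 4. In the other 3D libraries it was at 179.9 and 275 CPM in Kuramochi, 308 and 303 CPM in OVCAR4 and 599 and 367 CPM in OVCAR8. On plastic it was at 0 to 0.111 CPM in Kuramochi, 2.03 to 2.59 CPM in OVCAR4 and 0 CPM in OVCAR8. The low 3D libraries thus lay above plastic in COL1A2 too. They also had the smallest fibroblast marker sum of the 3D libraries in their lines. In the low library, 8 of 9 members were above every plastic library in Kuramochi, 8 in OVCAR4 and 7 in OVCAR8. Of all genes tested, 33.6%, 36.3% and 31.5% lay above every plastic library in the same library. In Kuramochi 3D library 4, C3 was 72.4 times its plastic mean (91.9 times in the other 3D libraries), C1R 3.07 times (3.08) and CFI 7.80 times (3.92). There CFB was at 8.86 times (10.2), C1S at 4.48 times (3.93) and SERPING1 at 2.59 times (1.58). In OVCAR4 3D library 42, CFB was 7.24 times its plastic mean (14.8 times in the other 3D libraries), C1S 4.97 times (8.14) and C3 3.65 times (4.17). There C1R was at 2.25 times (4.58), SERPING1 at 1.66 times (3.11) and CFI at 1.82 times (2.71). In OVCAR8 3D library 4, CFB was 25.5 times its plastic mean (101 times in the other 3D libraries), C3 25.2 times (361) and C1R 3.10 times (4.79). There SERPING1 was at 4.08 times (7.82) and C1S at 3.82 times (9.18), and CFI is given as counts above. For C1R, C1S, C3, CFB, CFI and SERPING1 every 3D library lay above every plastic library of its line, so these 3 libraries necessarily did too. In OVCAR8, 9 of 10 interferon response genes were higher on 3D as well. Their median log2 change was 3.72 in OVCAR8, -0.58 in Kuramochi and 0.62 in OVCAR4. Their part in the OVCAR8 values was not tested.

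**Figure D3:**
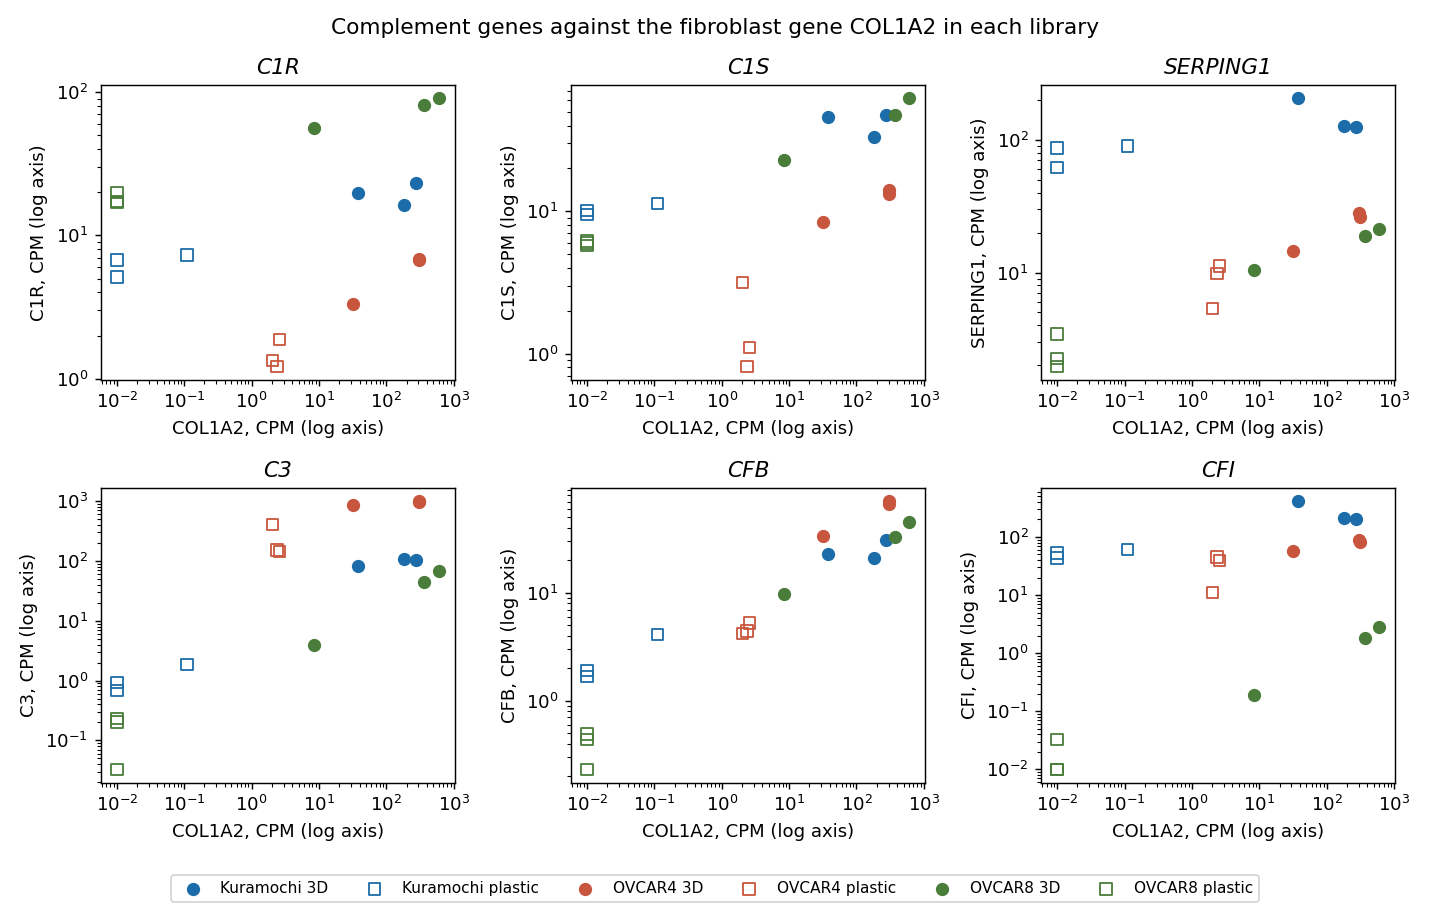
CPM of 6 members against CPM of the fibroblast gene COL1A2 in each library, both on log axes, with 3D as filled circles, plastic as open squares and 0 counts drawn at 0.01 CPM. The lowest COL1A2 of the 3D libraries is at 38.2 CPM in Kuramochi, 31.9 CPM in OVCAR4 and 8.33 CPM in OVCAR8. All 3D libraries lie above the plastic libraries of their line in each of the 6 members.

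Of 50 other complement genes listed, 23 could be tested. In Kuramochi 5 were higher and 1 lower, in OVCAR4 5 were higher and 3 lower, and in OVCAR8 9 were higher. Against all tested genes, 27.3%, 27.1% and 10.8% were called in either direction. C4BPA, MBL2, FCN2, CD93 and CPN1 had 0 counts in all 18 libraries, and 35 of the 50 were under 1 CPM in every group. C1RL, a relative of C1R, was higher in each line, at 55.2 against 26.1 CPM in Kuramochi, 28.8 against 15.7 CPM in OVCAR4 and 34.7 against 9.29 CPM in OVCAR8 (3D against plastic). Its log2 changes were 1.08 (SE 0.217, adjusted p = 0.00208), 0.87 (SE 0.218, adjusted p = 0.00798) and 1.90 (SE 0.225, adjusted p = 2.44e-05), and the OVCAR4 call was lost with close libraries averaged (adjusted p = 0.0623). C4A and C4B, near-identical copies that encode the substrate of C1s and between which reads may be split, were at 52.7 and 51.1 CPM in Kuramochi 3D, against 5.72 and 5.27 CPM on plastic. Their Kuramochi changes were 3.21 (SE 0.237, adjusted p = 4.36e-07) and 3.28 (SE 0.262, adjusted p = 6.39e-07), and in OVCAR4 and OVCAR8 they were under 1 on the log2 scale with adjusted p between 0.0207 and 0.0498. Of 24 alternatives, the OVCAR4 call was lost in 10 for C4A (adjusted p up to 0.160, with close libraries averaged) and 17 for C4B (adjusted p up to 0.221, and 0.180 with close libraries averaged). The OVCAR8 call was lost in 5 for C4A (adjusted p up to 0.316) and 10 for C4B (adjusted p up to 0.421), both largest values being those with close libraries averaged. The C4A and C4B changes differed among lines (adjusted p = 0.000253 and 0.000442). C2, the other substrate of C1s, was higher by 1.92 (SE 0.492, adjusted p = 0.00861) in Kuramochi, 1.39 (SE 0.502, adjusted p = 0.0482) in OVCAR4 and 2.54 (SE 0.594, adjusted p = 0.0105) in OVCAR8. The OVCAR8 groups of C2 overlapped, at 0.244 to 2.69 CPM on 3D, against 0.231 to 0.427 CPM on plastic (31 counts in all). Like CFB, C2 overlaps the read-through gene model. The OVCAR4 call for C2 was lost in 17 of 24 alternatives, the OVCAR8 call without OVCAR8 3D 61 or 62 or plastic 4 or 62, and the Kuramochi call without Kuramochi plastic 4 (adjusted p = 0.0576). With close libraries averaged, the adjusted p for C2 was 0.130 in OVCAR4 and 0.269 in OVCAR8.

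The remaining genes passed the test in 1 or 2 lines. In OVCAR8 C5, the component cleaved after C3, was higher at 5.83 against 1.73 CPM (log2 change 1.75, adjusted p = 0.00566), and so was the inhibitor gene SUSD4 at 16.6 against 6.61 CPM (log2 change 1.33, adjusted p = 3.34e-05). ITGAX, a subunit of a receptor for cleaved C3, was higher in OVCAR4 (log2 change 2.15, adjusted p = 0.00363) and in OVCAR8 (log2 change 1.96, adjusted p = 0.00193). PTX3, a soluble pattern-recognition protein that binds C1q, was higher in Kuramochi at 26.7 against 6.65 CPM (adjusted p = 0.00282) and lower in OVCAR4 at 10.2 against 26.4 CPM (adjusted p = 0.0201). C1QBP, a mostly mitochondrial protein named for binding C1q, fell by 0.73 in Kuramochi (adjusted p = 0.0071) and by 1.08 in OVCAR4 (adjusted p = 0.000983) on the log2 scale. CFD, the protease that cleaves factor B, fell by 1.01 on the log2 scale in OVCAR4 (adjusted p = 0.0228). The changes differed among lines for SUSD4 (adjusted p = 0.000426) and PTX3 (adjusted p = 0.00571). For C5, ITGAX, C1QBP and CFD the test among lines missed the threshold (adjusted p = 0.0709, 0.650, 0.365 and 0.104). With close libraries averaged the OVCAR8 calls of C5 (adjusted p = 0.166) and ITGAX (adjusted p = 0.0932) were lost, as was the difference among lines for PTX3 (adjusted p = 0.0740). The OVCAR4 calls of PTX3 and CFD were lost without OVCAR4 3D 4, OVCAR4 3D 6 or OVCAR4 plastic 4 and with close libraries averaged (adjusted p up to 0.103 for PTX3 and 0.114 for CFD). Without OVCAR8 3D library 4 the number called in OVCAR8 was 16, and without OVCAR8 3D 61 or 62 or OVCAR8 plastic 4 or 62 it was 5. In OVCAR4 it was 3 without OVCAR4 3D 4, OVCAR4 3D 6 or OVCAR4 plastic 4.

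**Figure D4:**
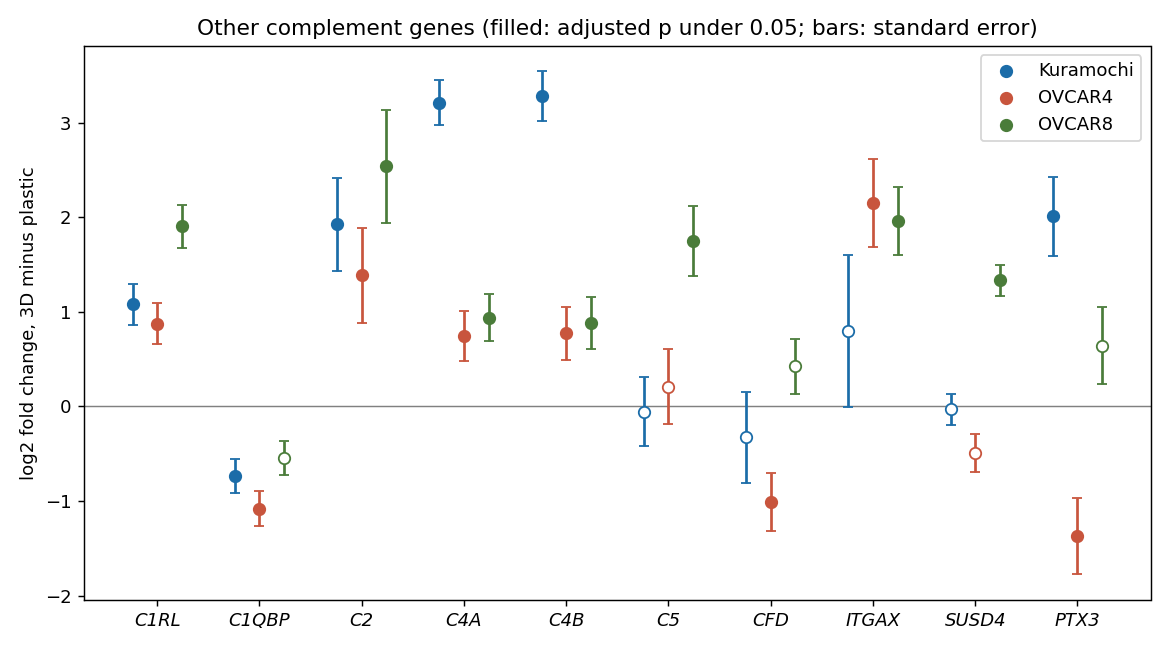
Log2 fold change of 3D minus plastic for other complement genes that were called in at least 1 line and reached 1 CPM in a group, with bars for the standard error and filled points for an adjusted p under 0.05. C1RL, C2, C4A and C4B are higher in all 3 lines, and C1QBP is below 0 in each.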

How the data were processed

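RNA from 18 libraries (3 cell lines, 3D or plastic, n = 3 each) was analysed. The authors deposited raw counts of reads per gene, with no scaling. Per the methods and the submitters' processing notes, stranded mRNA libraries were trimmed with Trimmomatic 0.33, aligned to GRCh38 with TopHat2 2.1.0 and counted with HTSeq; the study itself tested with DESeq2 1.12.3. The strand setting of the counting was not given in the sources used here. Of 58288 gene IDs, 57577 matched a symbol. Positions and exon lengths are from a later annotation than the one counted (GRCh38 too).

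The counts were tested with edgeR 4.0.16 (limma 3.58.1, R 4.3.3): filterByExpr (minimum count 10, minimum total 15), TMM factors and the robust quasi-likelihood F-test in 1 model of 6 groups, with Benjamini-Hochberg adjustment over 22023 genes. TMM factors lay between 0.944 and 1.12. Intervals and floors cover counting error only, and p-values measure the spread between these libraries. The scripts were tested on simulated data. Alternatives were DESeq2 1.42.0, other size factors, no filter, a 2-fold minimum, separate fits, a replicate block, averaging of close libraries, summing of overlapping models and leaving out each library. The replicate block paired same-numbered libraries in every line, and the main model paired none. The only evidence for such pairs was how far same-numbered libraries deviated together. Those of Kuramochi did so (r 0.125 to 0.282, against -0.247 to 0.028 for libraries of different number). Those of OVCAR4 (0.0899 to 0.325) and OVCAR8 (-0.0841 to 0.106) did not all pass 0.1. Libraries of different number gave -0.270 to 0.174 in OVCAR4 and -0.138 to 0.116 in OVCAR8. All members were named, and other complement genes were named where called in at least 1 line and at 1 CPM or more in a group, except 1 that is not reported here. The members and lists were chosen with earlier results of these data known.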

Additional observations from a re-analysis of the deposited data

Results flagged for a closer look

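By the test among all lines the change on 3D differed for 2 members, C3 and CFB, beside 6.17% of all genes. SERPING1 and CD55 passed only in the comparison of OVCAR8 with Kuramochi, which 5.71% of all genes passed. The comparison of OVCAR8 with OVCAR4 was passed by 4.04% of all genes. For C3 the test among all lines gave an adjusted p of 0.0119 and the OVCAR8 change exceeded the OVCAR4 change by 5.89 on the log2 scale (adjusted p = 0.0171). For CFB the test among all lines gave 0.0430 and the OVCAR8 change exceeded the Kuramochi change by 2.95 (adjusted p = 0.0292). For SERPING1 the OVCAR8 change exceeded the Kuramochi change by 1.78 (adjusted p = 0.0341), with 0.0611 for the test among all lines. For CD55 the OVCAR8 change minus the Kuramochi change was -2.80 (adjusted p = 0.0463), with 0.0873 for the test among all lines. In C3, CFB and SERPING1 every 3D library was above every plastic library in each line, and the lines differed in size. In CD55 the Kuramochi counts were between 0 and 52 per library. Among the other complement genes the test among all lines gave adjusted p values of 0.000253 for C4A, 0.000442 for C4B, 0.000426 for SUSD4 and 0.00571 for PTX3. C4A and C4B had their largest change in Kuramochi, SUSD4 was higher in OVCAR8, and PTX3 was higher in Kuramochi and lower in OVCAR4. With close libraries averaged none of the differences of the 4 members passed. The test among all lines then gave 0.125 for C3, 0.317 for CFB and 0.0740 for PTX3. The adjusted p of the difference between lines was 0.197 for C3, 0.200 for CFB, 0.259 for SERPING1 and 0.240 for CD55. C4A, C4B and SUSD4 passed the test among all lines under every alternative run.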

How the results depend on the processing

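C1R, C1S and CFB kept their 3D calls in all 3 lines under every alternative run. With close libraries averaged, 3 members were higher in OVCAR4, 2 other complement genes were called in OVCAR4 and 2 in OVCAR8, and 0 members differed among lines. On leaving out 1 library, members higher ranged from 6 to 8 in Kuramochi, 4 to 7 in OVCAR4 and 5 to 7 in OVCAR8, members that differed among lines from 1 to 4, and other complement genes called from 3 to 9 in OVCAR4 and 5 to 16 in OVCAR8. Members that differed among lines numbered 5 with DESeq2 and 6 with no filter on low counts. No filter gave 16 other complement genes called in OVCAR8, and the 2-fold minimum 5 in OVCAR4. Fitting OVCAR8 alone called 1 member lower, CD55 (adjusted p = 0.0297). The change of CD55 in OVCAR4 was -0.0124 with other size factors, -0.0101 with DESeq2, -0.029 with no filter, -0.0263 in the separate fit, and -0.194 to 0.314 on leaving out 1 library. CD59 in Kuramochi was -0.0733 without Kuramochi plastic replicate 2 and up to 0.350 on leaving out 1 library.

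With the replicate block, 8 members were higher in Kuramochi, 7 in OVCAR4 and 7 in OVCAR8, and 5 differed among lines. The block ended the OVCAR4 call of CD46 (adjusted p = 0.0551) and added CFI (0.00518) and CD59 (0.0372) in OVCAR4 and CD59 in OVCAR8 (0.0104). It changed no Kuramochi call. The cause of these changes was not tested. Low counts limited CFI in OVCAR8 and CD55 in Kuramochi, where plastic libraries held 0 to 11 counts. They limited C3 in OVCAR8 as well, where the 3 plastic libraries held 16 counts in all.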
